A study of Mus musculus with 9 samples.

Results

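The genes described here encode the subunits of the mitochondrial respiratory chain and of the ATP synthase, together with factors that assemble complex I. Membership was set by name and not by any measured value, although earlier results of these data were known when the members were chosen. A gene was a member if its probe set carried a single symbol beginning with Nduf followed by a, b, c, s or v, with Uqcr, with Cox4 to Cox8 or with Atp5, or the symbol Sdha, Sdhb, Sdhc or Sdhd. This gave 89 of the 19938 genes on the arrays, of which 41 belong to complex I, 4 to complex II, 8 to complex III, 19 to complex IV and 17 to complex V. The members comprise 81 structural subunits, 7 assembly factors of complex I (Ndufaf1 to Ndufaf7) and Ndufa4l2, a paralogue of Ndufa4. Ndufa4 was counted with complex IV, where its protein is found despite its name, and Ndufa4l2 was counted beside it. No filter on low values was applied, so all 89 were tested.

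The respiratory chain lies in the inner mitochondrial membrane. Complexes I and II take electrons from NADH and succinate, ubiquinone carries them to complex III and cytochrome c to complex IV, which reduces oxygen. Complexes I, III and IV pump protons as electrons pass, and complex V, the ATP synthase, uses the proton gradient to make ATP. Most subunits are encoded in the nucleus, and a small core of complexes I, III, IV and V is encoded in mitochondrial DNA. Neural progenitors are known for their reliance on glycolysis, and neurons for their use of oxidative phosphorylation. PRDM16 is a transcription regulator that in brown fat drives a programme rich in mitochondria.

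The ventricular zone of the brain of newborn C57BL/Ka mice, with its cells neither cultured nor treated, gave RNA for 9 arrays of the type Affymetrix Mouse Gene ST 1.0. Of these, 3 were of the genotype Prdm16+/+, called WT here, 3 of Prdm16LacZ/+, called HET, and 3 of Prdm16LacZ/LacZ, called KO. The labels do not say whether arrays came from separate pups, litters or pools. A p-value therefore sets a difference of genotype means against the scatter of these arrays, and that scatter may be technical. Values are log2 expression as deposited. A call is an adjusted p under 0.05 by limma, with Benjamini-Hochberg adjustment over all 19938 genes.

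Prdm16 lay at 7.62, 7.57 and 7.23 on the WT arrays, 6.995, 7.34 and 6.998 on the HET arrays and 5.69, 6.41 and 6.17 on the KO arrays, and the KO arrays lay below all others. Whether its probes lie in the disrupted part of the gene was not tested. Array medians over all probe sets lay between 5.80 and 5.92. HET replicate 1 and KO replicate 2 had the lowest array weights in limma, 0.547 and 0.364, so results are also given without them. Of the 8 markers of radial glia, 7 lay above the array median on all 9 arrays, and Hes1, with a mean of 5.39, lay below it on all 9. All 6 neuronal markers lay above it on all 9 arrays. Some markers of other cells did so too, such as Trem2 of microglia and Pdgfrb of pericytes, so this level does not identify the cells sampled.

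Of the 89 members, 73 had a promoter in the RefSeq table for GRCm38.p6, in 78 windows of 300 bases, 250 before and 50 after the start site. Letters known as binding motifs of regulators of respiratory genes were searched on both strands: GCGCA followed directly by its reverse complement TGCGC for NRF1, CCGGAAG for GABPA, AAGATGGCG for YY1 and TCAAGGTCA for ESRRA, along with the general promoter letters GGGCGG, of SP1, and TATAAA. Per gene, the NRF1 letters were found for 7 of the 73 members (9.59%), against 1.62% of the 15563 genes of the arrays with a window. The GABPA letters were found for 18 members (24.7%, against 13.6%), the YY1 letters for 7 (9.59%, against 2.29%) and the ESRRA letters for 2 (2.74%, against 0.347%). The SP1 letters were found for 33 (45.2%, against 53.0%) and TATAAA for 8 (10.96%, against 13.6%). Over all 32851 windows in the table, without regard to genes, the shares were 0.971% for NRF1, 8.86% for GABPA, 1.40% for YY1, 0.423% for ESRRA, 35.7% for SP1 and 13.6% for TATAAA. The windows of members held a median of 58.0% G and C, against 52.7% over all windows. The median over the windows of array genes alone was not taken. At least 1 of the NRF1, GABPA and YY1 motifs was found for 29 members, and none of these 3 for 44. A match describes the letters and is not a measured binding site.

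The promoters of Cox6a1, Atp5g2, Ndufa9 and Ndufs5 are shown because they stand for windows with NRF1 and GABPA letters, with NRF1 letters, with YY1 letters and with none of these 3, and because Ndufs5 had the largest change of the members in HET. Capitals mark the matches, and each window is written 5′ to 3′ along the gene, with GRCm38.p6 coordinates.
Cox6a1 (chr5:115348909-115349208, minus strand): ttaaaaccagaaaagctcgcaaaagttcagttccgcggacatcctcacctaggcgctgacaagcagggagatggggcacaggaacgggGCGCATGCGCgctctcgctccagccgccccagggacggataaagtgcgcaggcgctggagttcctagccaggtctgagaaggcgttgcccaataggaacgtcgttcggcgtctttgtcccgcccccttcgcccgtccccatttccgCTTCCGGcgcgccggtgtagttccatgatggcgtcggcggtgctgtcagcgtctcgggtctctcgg
Atp5g2 (chr15:102670998-102671297, minus strand): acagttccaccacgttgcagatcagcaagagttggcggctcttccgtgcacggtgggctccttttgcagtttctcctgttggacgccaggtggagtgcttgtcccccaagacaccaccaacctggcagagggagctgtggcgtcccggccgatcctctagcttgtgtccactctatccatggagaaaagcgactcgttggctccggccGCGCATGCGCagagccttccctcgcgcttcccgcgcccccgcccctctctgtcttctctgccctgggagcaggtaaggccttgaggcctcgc
Ndufa9 (chr6:126849095-126849394, minus strand): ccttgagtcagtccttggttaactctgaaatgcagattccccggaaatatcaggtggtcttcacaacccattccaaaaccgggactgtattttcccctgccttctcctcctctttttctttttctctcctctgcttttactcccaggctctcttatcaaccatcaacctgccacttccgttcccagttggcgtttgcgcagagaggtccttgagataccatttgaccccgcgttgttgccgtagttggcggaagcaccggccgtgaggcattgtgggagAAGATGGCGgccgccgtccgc
Ndufs5 (chr4:123718137-123718436, minus strand): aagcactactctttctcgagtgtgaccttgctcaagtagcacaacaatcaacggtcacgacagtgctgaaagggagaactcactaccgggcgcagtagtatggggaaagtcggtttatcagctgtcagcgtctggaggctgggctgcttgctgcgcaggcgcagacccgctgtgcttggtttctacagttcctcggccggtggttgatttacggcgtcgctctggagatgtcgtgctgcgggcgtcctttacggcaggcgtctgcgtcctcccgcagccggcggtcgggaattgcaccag

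In the Cox6a1 window the NRF1 letters began at base 89 and the GABPA letters, as their reverse complement, at base 235. In the Atp5g2 window the NRF1 letters began at base 209. The YY1 letters of Ndufa9 began at base 280, after the start site, and those of Ndufs4, Ndufs6, Ndufs7, Ndufc1 and Atp5j2 also began after it, between bases 273 and 286. The match in Atp5j, the other member with YY1 letters, began at base 163. In HET against WT the 7 members with the NRF1 letters had a median log2 change of 0.15 and the 66 without 0.11. The 18 with the GABPA letters had 0.11 and the 55 without 0.13, and the 7 with the YY1 letters 0.14 and the 66 without 0.12. The 33 with the SP1 letters had 0.16 and the 40 without 0.081, the 8 with TATAAA 0.017 and the 65 without 0.13, and the 2 with the ESRRA letters 0.15 and the 71 without 0.11. These medians are descriptions without a test.

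No member was called in any comparison of genotypes. Most members lay slightly higher in HET than in WT, through HET replicates 2 and 3 rather than all HET arrays, while the KO median lay near WT. In HET against WT, 78 of the 89 members lay higher (87.6%, against 51.5% of all genes), with a median log2 change of 0.12, against 0.0039 over all genes. In KO against WT, 51 lay higher (57.3%, against 52.6%), with a median of 0.017, against 0.0064. In KO against HET, 21 lay higher (23.6%, against 51.0%) and 68 lower, with a median of -0.084, against 0.0029. These comparisons share arrays, so their values are not independent of each other.

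Called by limma were 0 of 89 members in KO against WT, where 0.451% of all genes were called, 0 in HET against WT, where 0% were called, and 0 in KO against HET, where 0.206% were called. The smallest adjusted p of a member by limma was 0.65 in KO against WT, 0.99 in HET against WT and 0.44 in KO against HET. At an unadjusted p under 0.05, 7 members lay above WT in HET (2.40% of all genes) and 0 below (1.66%). In KO, 2 lay above WT (3.28%) and 0 below (2.87%). In KO against HET, 6 lay lower (3.30%) and 0 higher (2.87%). HET was also set against the mean of WT and KO, with 0 members and 0% of all genes called. There 74 members lay higher (50.4% of all genes) with a median of 0.10, 7 of them at an unadjusted p under 0.05 (2.71% of all genes), and 0 lay lower at that p (2.06%).

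The spread between these arrays sets how wide the intervals given here are. If that spread is technical, they do not bound differences between animals. The median standard error of a member's log2 change was 0.12, with a range from 0.066 to 0.23, against 0.10 over all genes. In KO against WT, the 95% interval of 84 of the 89 members lay within a 1.5-fold change either way, and that of all 89 within a 2-fold change. In HET against WT and in KO against HET these counts were 80 and 88.

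The arrays of a genotype differed among themselves. As the median over members of the log2 distance from each gene's WT mean, the WT arrays lay at 0.014, 0.036 and -0.046. The HET arrays lay at -0.027, 0.14 and 0.22, and the KO arrays at 0.0063, -0.047 and 0.077. HET replicate 1 thus lay inside the range of the WT arrays, and HET replicates 2 and 3 lay above all other arrays. Counted gene by gene, 14 members lay above every WT array on HET replicate 1 (27.0% of all genes did so), 55 on replicate 2 (30.0%) and 67 on replicate 3 (29.1%). On KO replicates 1, 2 and 3 the counts were 22 (24.7%), 20 (36.7%) and 45 (31.2%). Below every WT array lay 31 (20.1%), 7 (31.3%) and 2 (29.1%) on the HET arrays and 19 (29.2%), 39 (23.5%) and 14 (30.1%) on the KO arrays. These shares are over genes of every level. Most members lie in the highest 1 in 3 by mean level, and no such count was made among those genes.

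The median SD of a member was 0.086 over the WT arrays, 0.17 over the HET arrays and 0.17 over the KO arrays, against 0.077, 0.12 and 0.13 over all genes. The highest of the 9 values of a member lay on HET replicate 3 for 35 members (12.1% of all genes), on HET replicate 2 for 22 members (12.98% of all genes) and on KO replicate 3 for 19 members (14.4% of all genes). The lowest lay on KO replicate 2 for 26 members (13.4% of all genes), on WT replicate 3 for 17 members (8.47% of all genes) and on HET replicate 1 for 12 members (7.01% of all genes). Here too the shares are over genes of every level.

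**Figure D1:**
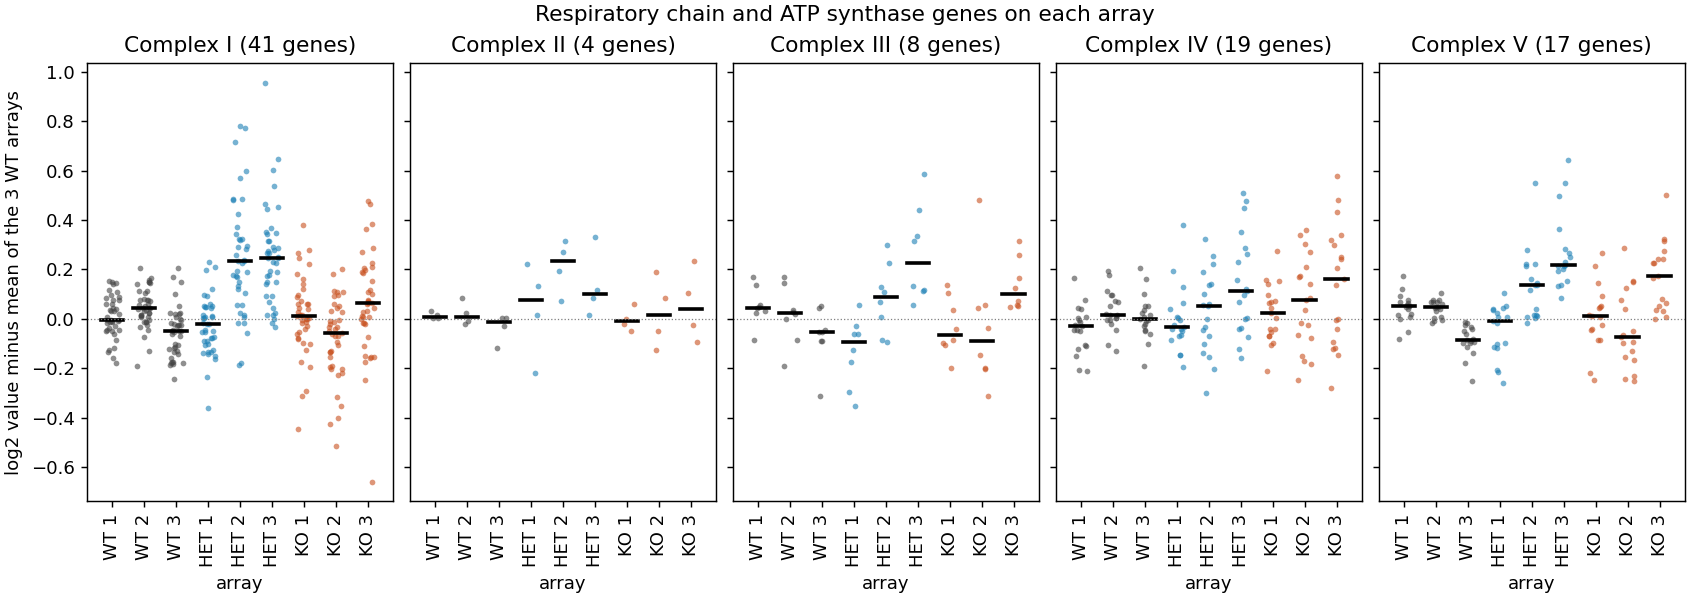
Each point is a member gene on an array, as its log2 value minus the mean of the 3 WT arrays, in a panel per complex, and bars are medians. In complex I the bars of HET replicates 1, 2 and 3 lie at -0.022, 0.23 and 0.25, and those of the KO arrays at 0.011, -0.055 and 0.063.

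Single arrays moved these medians. Without HET replicate 1 the HET against WT median was 0.18, and without HET replicate 3 it was 0.064. The KO against WT median was 0.047 without KO replicate 2 and -0.022 without KO replicate 3, which turned its sign. KO against HET had a median of -0.16 without HET replicate 1 and -0.031 without HET replicate 3. With HET replicate 1 and KO replicate 2 left out together, the medians were 0.18 in HET against WT, 0.047 in KO against WT and -0.12 in KO against HET, and no member was called.

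Other genes moved with the members on these arrays. The 61 cytosolic ribosomal proteins had medians of -0.039, 0.071 and 0.25 on the HET arrays and 0.043, -0.072 and 0.17 on the KO arrays. In HET against WT, 55 of them lay higher, with a median of 0.10. Of all genes in the highest 1 in 3 by mean level, which hold 69 of the members, 65.7% lay higher in HET with a median of 0.047, and 64 of these 69 members did (92.8%, median 0.12).

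Neuronal markers had medians of -0.072, 0.15 and 0.17 on the HET arrays and 0.11, -0.052 and 0.036 on the KO arrays. In HET, 4 of the 6 lay above WT and 2 below, with a median of 0.097. The largest change in HET was that of Rbfox3, at 0.43 (unadjusted p = 0.013, adjusted p = 0.99 by limma). In KO, 5 lay above WT and 1 below, which was Stmn2 at -0.27 (unadjusted p = 0.072, adjusted p = 0.86 by limma). Their summed log2 level was 60.4 to 60.8 in WT, 60.4 to 62.1 in HET and 60.6 to 61.4 in KO. The part of array differences and of neuronal content in the members' values was not tested. In a dissected tissue, fewer cells of a type and less RNA per cell cannot be told apart.

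**Figure D2:**
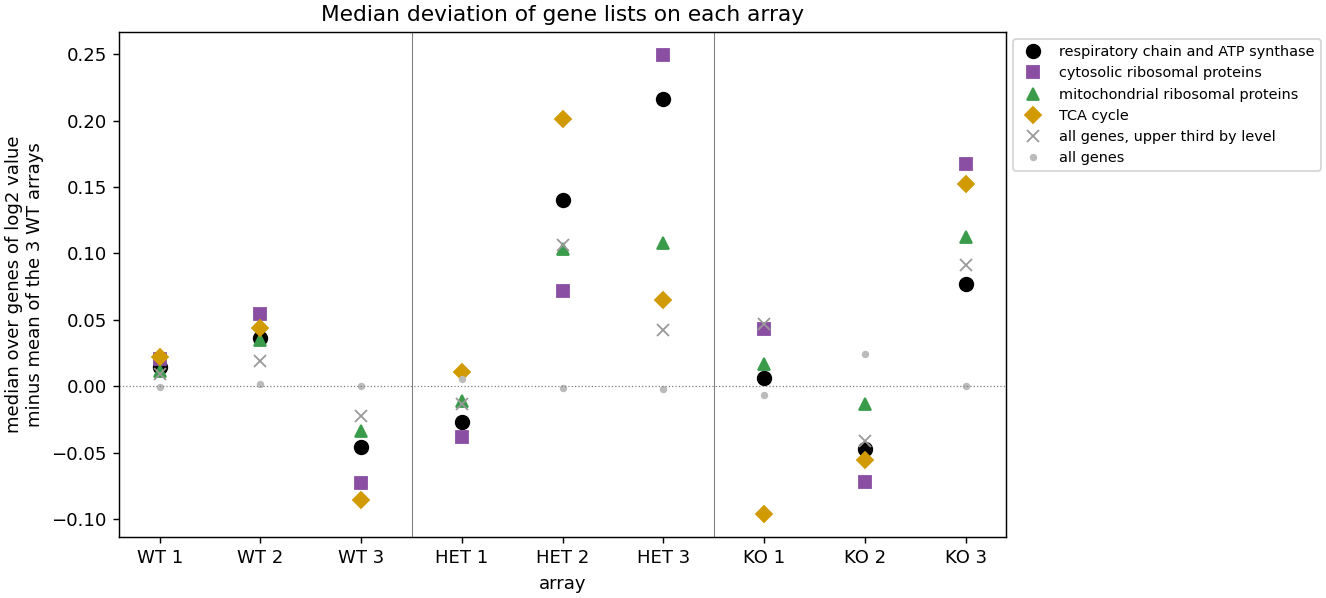
Points are the median over the genes of a list of the log2 value minus the mean of the 3 WT arrays, by array. The members lie at -0.027, 0.14 and 0.22 on the HET arrays, and the cytosolic ribosomal proteins at -0.039, 0.071 and 0.25.

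Complex I, NADH dehydrogenase, had 37 of its 41 genes above WT in HET, with a median of 0.15. In KO, 20 lay above WT with a median of -0.0080, and 38 of 41 lay lower in KO than in HET, with a median of -0.15. Over all settings tried, the HET median of complex I stayed between 0.11 and 0.22. Whether it differed from that of the other complexes was not tested.

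The core subunits of complex I hold the flavin and the iron-sulfur clusters that lead electrons from NADH to ubiquinone. Of the 6 measured, 5 lay higher in HET than in WT (median 0.079). Ndufv2, of the NADH module, lay at 8.29, 8.21 and 8.18 on the WT arrays, 8.29, 8.45 and 8.54 on the HET arrays and 8.29, 8.15 and 8.29 on the KO arrays. HET replicates 2 and 3 lay above all other arrays, and HET replicate 1 lay within the WT range. Its log2 change in HET was 0.20 (SE 0.086, unadjusted p = 0.041, adjusted p = 0.99 by limma, n = 3). The value of Ndufv2 was equal, within 1e-06, on 4 arrays: WT replicate 1, HET replicate 1 and KO replicates 1 and 3. Against WT, Ndufs8, an iron-sulfur subunit, lay at 0.18 in HET and -0.13 in KO (SE 0.17), and Ndufs1, the largest subunit, at 0.062 in HET and -0.14 in KO (SE 0.14). Ndufs3 lay at 0.10 in HET and 0.044 in KO (SE 0.13), Ndufv1, which binds NADH, at 0.043 in HET and 0.021 in KO (SE 0.12) and Ndufs7, an iron-sulfur subunit, at -0.011 in HET and -0.11 in KO (SE 0.10).

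Of the 28 accessory subunits, which surround the core, 25 lay higher in HET than in WT, with a median of 0.15. Ndufs5 had the largest change of all members in HET. It lay at 6.68, 6.94 and 6.78 on the WT arrays, 6.89, 7.51 and 7.75 on the HET arrays and 6.94, 6.67 and 6.14 on the KO arrays. HET replicates 2 and 3 lay above all other arrays, HET replicate 1 lay inside the WT range, and KO replicate 3 was the lowest. The log2 change was 0.59 in HET against WT (SE 0.23, unadjusted p = 0.028, adjusted p = 0.99 by limma, n = 3) and -0.80 in KO against HET (unadjusted p = 0.0056, adjusted p = 0.44). A probe set annotated to both Ndufs5 and its pseudogene Ndufs5-ps, not used for the members, gave 0.27 and -0.30 in the same comparisons.

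Ndufb5, a subunit of the membrane arm, lay at 6.54, 6.53 and 6.49 on the WT arrays, 6.52, 7.29 and 6.96 on the HET arrays and 6.46, 6.205 and 6.59 on the KO arrays. The WT arrays lay close together, HET replicates 2 and 3 lay above all other arrays, and HET replicate 1 lay within the WT range. Its log2 change was 0.41 in HET against WT (SE 0.17, unadjusted p = 0.035, adjusted p = 0.99 by limma, n = 3) and -0.51 in KO against HET (unadjusted p = 0.013, adjusted p = 0.60). Ndufa9, which lies near the ubiquinone site, lay at 8.401, 8.44 and 8.23 on the WT arrays, 8.28, 9.14 and 8.82 on the HET arrays and 8.45, 8.34 and 8.58 on the KO arrays. Again HET replicates 2 and 3 lay above all other arrays and HET replicate 1 within the WT range. Its log2 change in HET was 0.39 (SE 0.18, unadjusted p = 0.054, adjusted p = 0.99 by limma).

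Ndufb8, also of the membrane arm, lay at 7.02, 7.104 and 7.32 on the WT arrays, 7.36, 7.63 and 7.52 on the HET arrays and 7.37, 7.24 and 7.63 on the KO arrays. All HET arrays lay above the WT arrays, while KO replicate 2 lay below WT replicate 3. The log2 change was 0.35 in HET (SE 0.12, unadjusted p = 0.014, adjusted p = 0.99 by limma, n = 3) and 0.26 in KO (unadjusted p = 0.052, adjusted p = 0.82). All HET arrays lay above all WT arrays for 7 of the 89 members (3.75% of all genes): Ndufa6, Ndufa8, Ndufb8, Ndufaf7, Sdha, Sdhc and Cox5a. All lay below for 1, Cox7a1 (3.10% of all genes).

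Lower in KO than in HET at an unadjusted p under 0.05 were also Ndufa10, by a log2 change of -0.27 (SE 0.12, unadjusted p = 0.043), and Ndufab1, the mitochondrial acyl carrier protein, by -0.22 (SE 0.094, unadjusted p = 0.044). Their adjusted p by limma was 0.79 and 0.79. Among other accessory subunits, Ndufa6 lay at 0.23 in HET and 0.10 in KO and Ndufc2 at 0.24 in HET and -0.074 in KO against WT.

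The 7 assembly factors help build complex I and are not part of it. All lay higher in HET than in WT, with a median of 0.16, and 5 lay higher in KO, with a median of 0.047. Ndufaf1 lay at 6.57, 6.39 and 6.31 on the WT arrays, 6.41, 6.997 and 6.96 on the HET arrays and 6.59, 6.61 and 6.89 on the KO arrays. All KO arrays lay above the WT arrays, and HET replicate 1 lay among the WT arrays. Its log2 change was 0.36 in HET (SE 0.16, unadjusted p = 0.042, adjusted p = 0.99 by limma, n = 3) and 0.27 in KO (unadjusted p = 0.11, adjusted p = 0.92). Ndufaf7, a methyltransferase, lay at 0.28 in HET and 0.047 in KO (SE 0.14), Ndufaf3 at 0.16 in HET and -0.020 in KO (SE 0.087) and Ndufaf6 at 0.072 in HET and 0.17 in KO (SE 0.12).

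**Figure D3:**
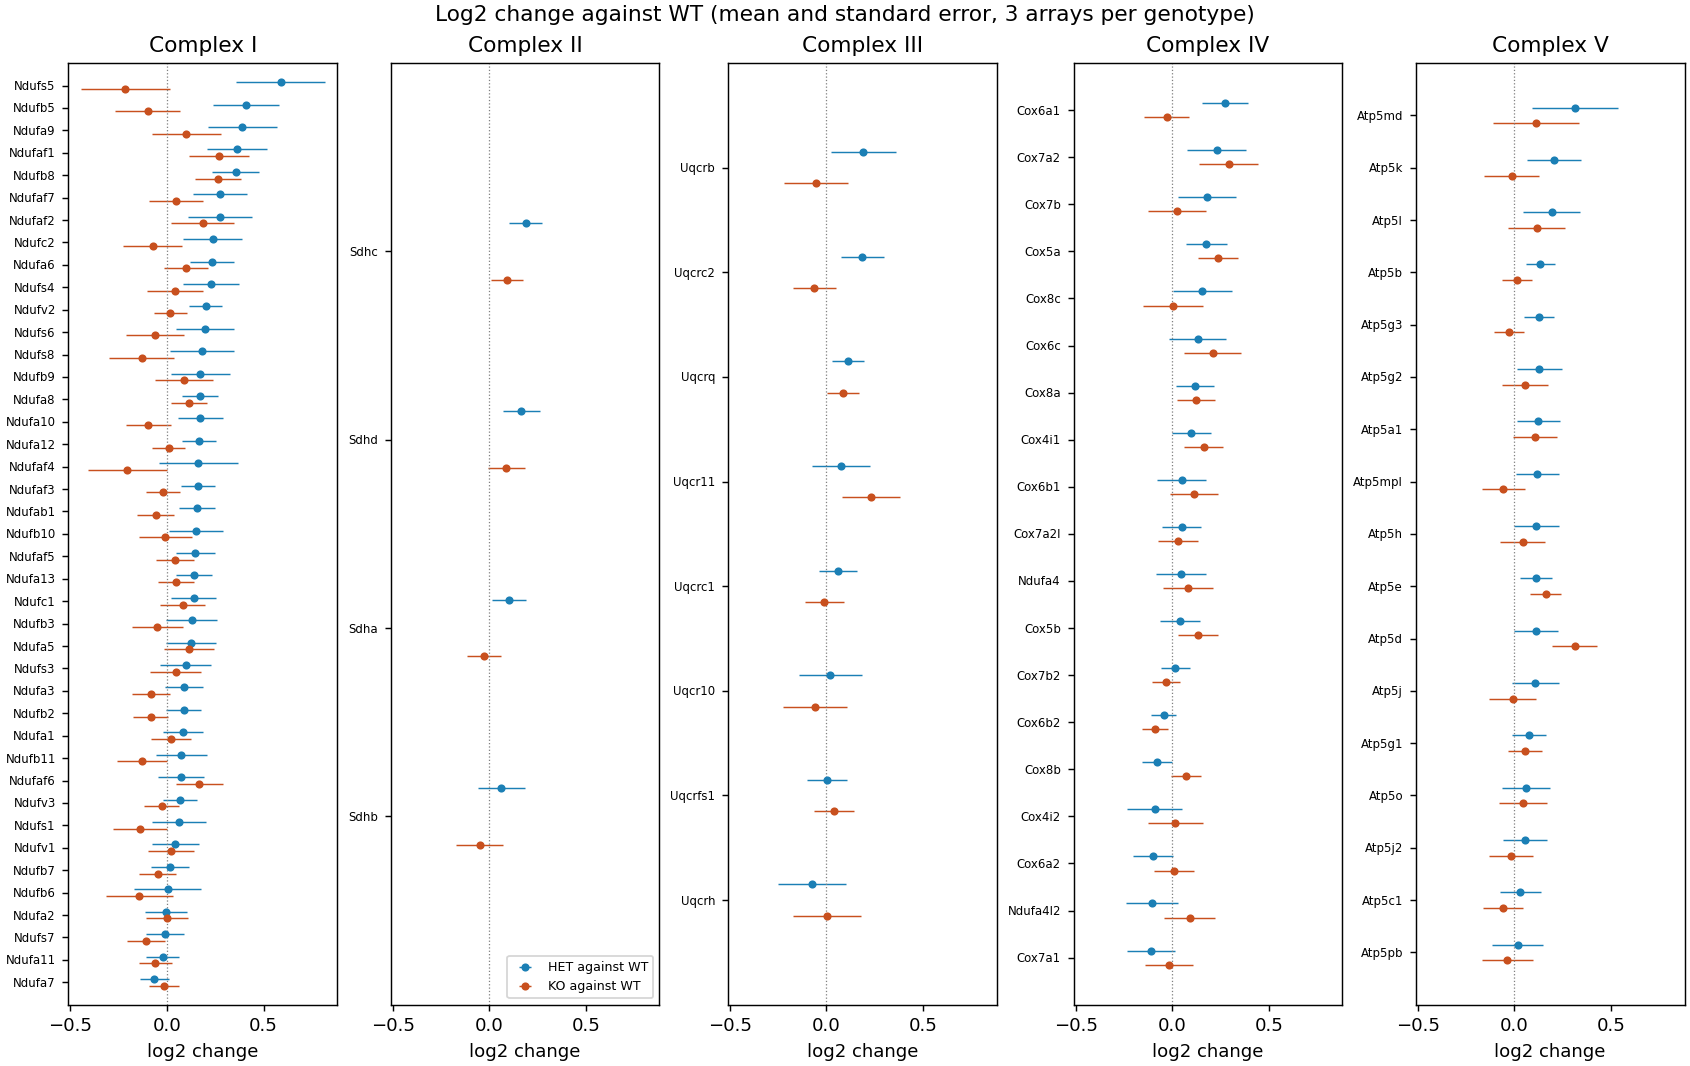
Log2 changes against WT of every member in HET and in KO, with standard errors (n = 3 arrays per genotype), in a panel per complex. In complex I, 37 of 41 genes lie above 0 in HET and 20 of 41 in KO.

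Complex II, succinate dehydrogenase, links the chain to the TCA cycle and has only nuclear-encoded subunits. All 4 genes lay higher in HET than in WT, with a median of 0.13, and 2 of 4 in KO, with a median of 0.031. Sdhc, a membrane anchor, lay at 7.799, 7.82 and 7.77 on the WT arrays, 7.93, 8.11 and 7.92 on the HET arrays and 7.78, 7.99 and 7.904 on the KO arrays. All HET arrays lay above the WT arrays, and KO replicate 1 lay among the WT arrays. Its log2 change in HET was 0.19 (SE 0.085, unadjusted p = 0.048, adjusted p = 0.99 by limma, n = 3). Sdha, the flavoprotein, lay at 9.59, 9.56 and 9.58 on the WT arrays, 9.59, 9.85 and 9.59 on the HET arrays and 9.64, 9.53 and 9.49 on the KO arrays, and HET replicates 1 and 3 exceeded the highest WT array by under 0.01. Sdhb, the iron-sulfur subunit, lay at 0.063 in HET and -0.050 in KO (SE 0.12) and Sdhd, the other anchor, at 0.17 in HET and 0.089 in KO (SE 0.094).

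Complex III passes electrons from ubiquinol to cytochrome c. Of its 8 genes, 7 lay higher in HET than in WT (median 0.068) and 4 in KO (median -0.0045). The HET median was -0.030 without HET replicate 3 and 0.16 without HET replicate 1. The KO median ran from -0.091 without KO replicate 3 to 0.078 without KO replicate 2, and it was positive with any 1 of WT replicate 1, WT replicate 2, KO replicate 1 or KO replicate 2 left out. Uqcrc2, a core protein, lay at 9.48, 9.48 and 9.398 on the WT arrays, 9.39, 9.75 and 9.77 on the HET arrays and 9.41, 9.26 and 9.51 on the KO arrays. HET replicates 2 and 3 lay above all WT and KO arrays, and HET replicate 1 did not. Its log2 change was 0.18 in HET against WT and -0.25 in KO against HET (SE 0.11, unadjusted p = 0.0496, adjusted p = 0.81 by limma, n = 3). Its partner Uqcrc1 lay at 0.060 in HET and -0.011 in KO against WT (SE 0.10), Uqcrfs1, the Rieske iron-sulfur protein, at 0.0037 in HET and 0.042 in KO (SE 0.10), and Uqcr11, a small subunit, at 0.077 in HET and 0.23 in KO (SE 0.15).

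In complex IV, cytochrome c oxidase, 13 of 19 genes lay higher in HET than in WT (median 0.048) and 15 in KO (median 0.073), and 13 lay higher in KO than in HET (median 0.061). The 6 lower in HET were Cox4i2, Cox6a2, Cox6b2, Cox7a1, Cox8b and Ndufa4l2. These are forms known from other tissues or, for Ndufa4l2, from hypoxia, and they lower the HET count and median. The testis forms Cox7b2 and Cox8c lay higher, as did all widely expressed forms. The HET median was -0.018 without HET replicate 3 and -0.0019 with quantile normalization, while the KO median stayed between 0.031 and 0.13 over all settings tried. The KO against HET median was -0.040 without HET replicate 1 and -0.042 without KO replicate 3, so its sign rested on single arrays. Cox5a, which holds no metal centre and surrounds the catalytic core, lay at 7.94, 7.97 and 7.95 on the WT arrays, 8.08, 8.09 and 8.21 on the HET arrays and 8.09, 8.03 and 8.43 on the KO arrays. All HET and KO arrays lay above all WT arrays, which lay close together. The log2 change was 0.24 in KO (SE 0.10, unadjusted p = 0.047, adjusted p = 0.80 by limma, n = 3) and 0.18 in HET (unadjusted p = 0.12). All KO arrays lay above all WT arrays for 3 members (5.63% of all genes), Cox5a, Ndufaf1 and Atp5d, and below for 1 (4.34%), Cox6b2.

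Several subunits of complex IV exist as paralogues used in different tissues. Cox6a1, the form of subunit 6a used outside heart and muscle, lay at 10.11, 10.26 and 10.11 on the WT arrays, 10.199, 10.48 and 10.61 on the HET arrays and 10.12, 9.98 and 10.296 on the KO arrays. HET replicates 2 and 3 lay above all other arrays and HET replicate 1 inside the WT range. Its log2 change was 0.27 in HET against WT (SE 0.12, unadjusted p = 0.044, adjusted p = 0.99 by limma, n = 3) and -0.30 in KO against HET (unadjusted p = 0.029, adjusted p = 0.75). Its heart and muscle paralogue Cox6a2 lay at -0.10 in HET and 0.0078 in KO against WT (SE 0.10). Among the widely expressed forms, Cox7a2 lay at 0.23 in HET and 0.29 in KO (SE 0.15), Cox4i1 at 0.10 in HET and 0.16 in KO (SE 0.10) and Cox8a at 0.12 in HET and 0.12 in KO (SE 0.10). Cox6b1 lay at 0.049 in HET and 0.11 in KO (SE 0.13), Cox7b at 0.18 in HET and 0.023 in KO (SE 0.15) and Cox6c at 0.13 in HET and 0.21 in KO (SE 0.15). Cox7a2l, known for joining complexes III and IV, lay at 0.048 in HET and 0.029 in KO (SE 0.10), and Ndufa4 at 0.045 in HET and 0.081 in KO (SE 0.13).

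The forms known from other tissues were mostly dim. On all 9 arrays, Cox7a1, Cox7b2, Cox8b, Cox8c and Ndufa4l2 lay below the median of all probe sets, and Cox7b2 lay below the lower quartile on all 9. Against WT, Cox7a1, a heart and muscle form, lay at -0.11 in HET and -0.015 in KO (SE 0.13) and Cox8b, also of heart and muscle, at -0.079 in HET and 0.073 in KO (SE 0.078). Cox4i2, known from lung, lay at -0.090 in HET and 0.017 in KO (SE 0.14), and Ndufa4l2, known to be induced by hypoxia, at -0.11 in HET and 0.090 in KO (SE 0.13). The testis forms lay at -0.044 in HET and -0.088 in KO for Cox6b2 (SE 0.066), 0.017 in HET and -0.030 in KO for Cox7b2 (SE 0.073) and 0.16 in HET and 0.0033 in KO for Cox8c (SE 0.15). None of these passed the test, and a small change of a dim probe set may not be measurable here.

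Complex V, the ATP synthase, had all 17 genes above WT in HET, with a median of 0.11 and a range from 0.016 to 0.31, and none with an unadjusted p under 0.05. In KO, 10 of 17 lay above WT, with a median of 0.044. The HET median was 0.17 without HET replicate 1, 0.057 without HET replicate 3 and 0.067 without WT replicate 3. The KO median ran from -0.055 when KO replicate 3 was left out to 0.070 when KO replicate 2 was, it was 0.067 with WT replicate 2 left out, and it also lay just below 0 with WT replicate 3 left out. On HET replicate 3 all 17 lay above every WT array, as did 29.1% of all genes. On HET replicate 2, 9 of 17 did (30.0% of all genes), and on HET replicate 1, 1 of 17 (27.0%). Atp5d, the delta subunit of the central stalk, had the largest change of all members in KO. It lay at 8.62, 8.56 and 8.32 on the WT arrays, 8.48, 8.64 and 8.702 on the HET arrays and 8.64, 8.79 and 9.001 on the KO arrays. All KO arrays lay above the WT arrays, KO replicate 1 by the smallest margin. Its log2 change in KO was 0.31 (SE 0.11, unadjusted p = 0.021, adjusted p = 0.65 by limma, n = 3), and 0.11 in HET.

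The catalytic beta subunit Atp5b lay at 0.13 in HET and 0.013 in KO against WT (SE 0.076) and the alpha subunit Atp5a1 at 0.12 in HET and 0.11 in KO (SE 0.11). Atp5g1, Atp5g2 and Atp5g3 are known to encode the same mature c subunit of the rotor ring. They lay at 0.074, 0.13 and 0.13 in HET and at 0.055, 0.055 and -0.027 in KO, with SEs of 0.089, 0.12 and 0.078. Atp5g3 lay at 10.403, 10.53 and 10.44 on the WT arrays, 10.497, 10.57 and 10.69 on the HET arrays and 10.42, 10.39 and 10.49 on the KO arrays, and all its KO arrays lay below the HET arrays. This held for 3 members (3.09% of all genes), Atp5g3, Ndufb2 and Cox6b2, and the reverse for 0 (3.45%). Atp5e, the epsilon subunit, lay at 0.11 in HET and 0.16 in KO (SE 0.080). Atp5md, a small membrane protein of the complex chosen after its values were seen, lay at 0.31 in HET and 0.11 in KO (SE 0.22), with HET replicate 1 at 8.14 and HET replicates 2 and 3 at 8.95 and 9.05.

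**Figure D4:**
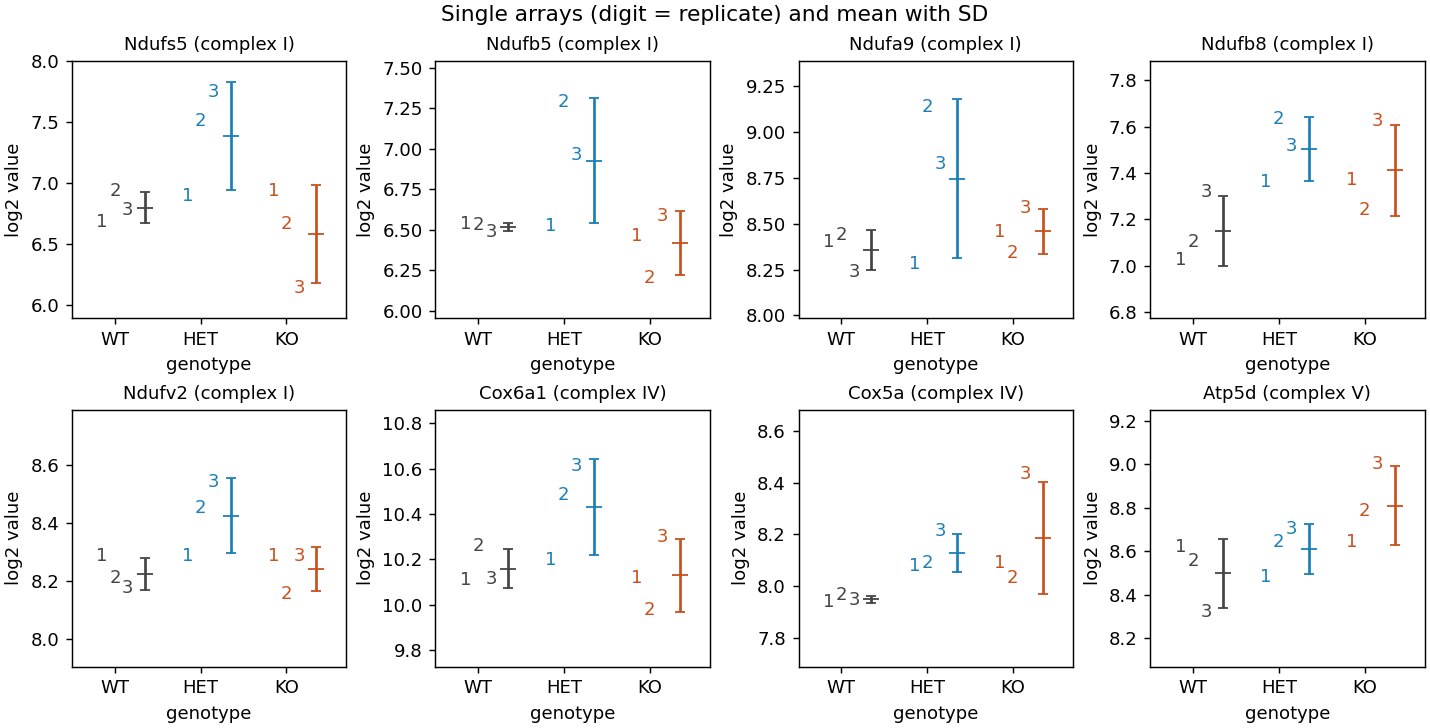
Log2 values of 8 members by genotype, each digit being the replicate number of an array, with the mean and SD of the 3 arrays. Ndufs5, Ndufb5, Ndufa9, Ndufv2 and Cox6a1 have HET replicates 2 and 3 above all other arrays, and Cox5a has all HET and KO arrays above all WT arrays.

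By genotype means, HET was highest for 65 members, in 33 with WT above KO and in 32 with KO above WT, which is 37.1% and 36.0% of members, against 17.1% and 16.7% of all genes. KO was highest for 19 members, 13 (14.6%, against 17.7% of all genes) with HET above WT and 6 (6.74%, against 18.2% of all genes) with WT above HET. WT was highest for 5, 3 (3.37%, against 15.2% of all genes) with HET above KO and 2 (2.25%, against 15.2% of all genes) with KO above HET.

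Other genes of energy metabolism were counted from lists, and none of those on electron carriers, assembly, the TCA cycle, carriers, glycolysis, the vacuolar pump and ribosomes was called in KO against WT, HET against WT or KO against HET. Of 16 genes of complex III, ubiquinone synthesis and electron carriers, 12 lay higher in HET (median 0.037) and 7 in KO (median -0.074), with Cyc1, cytochrome c1 of complex III, at -0.012 in HET and 0.17 in KO. Of 41 further assembly factors, 31 lay higher in HET (median 0.053) and 26 in KO (median 0.035), with Uqcc2, of complex III, at 0.29 in HET (unadjusted p = 0.017, adjusted p = 0.99 by limma). Of the mitochondrially encoded subunits, 2 were measured, ND3 at 0.052 in HET and 0.044 in KO and COX2 at 0.076 in HET and -0.0094 in KO. Of 14 TCA cycle genes, 11 lay higher in HET (median 0.10) and 7 in KO (median -0.017), with Fh1, fumarase, at 0.32 in HET (unadjusted p = 0.018) and Suclg2, a succinyl-CoA ligase subunit, at -0.57 in KO (SE 0.16, adjusted p = 0.32 by limma).

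Of 17 carriers and channels of the mitochondrial membranes, 12 lay higher in HET (median 0.085) and 9 in KO (median 0.015), with Slc25a11, the oxoglutarate carrier, at 0.49 in HET (unadjusted p = 0.0075, adjusted p = 0.99 by limma). Of 77 mitochondrial ribosomal proteins, 55 lay higher in HET (median 0.045) and 48 in KO (median 0.037). Of the cytosolic ribosomal proteins, 43 of 61 lay higher in KO (median 0.038). Of 17 subunits of the vacuolar proton pump, which acidifies lysosomes and synaptic vesicles, 14 lay higher in HET (median 0.11) and 12 in KO (median 0.034). Of 18 glycolysis genes, 11 lay higher in HET (median 0.061) and 11 in KO (median 0.047), with Aldoc, an aldolase of brain, at -0.60 in KO (SE 0.15, adjusted p = 0.22 by limma). Whether the members differed from these lists was not tested.

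Of 24 regulators of respiratory gene expression, 10 lay higher in HET (median -0.0085) and 12 in KO (median -0.00083). The 1 that was called was Prdm16 itself, which fell in KO, by a log2 change of -1.38 (SE 0.18, adjusted p = 0.010 by limma, n = 3). Ppargc1a, the coactivator PGC-1alpha that PRDM16 binds in brown fat, lay at -0.057 in HET and -0.38 in KO (SE 0.15, adjusted p in KO = 0.71 by limma). Nfe2l2, a regulator of the response to oxidative stress, lay at -0.39 in HET and -0.44 in KO (SE 0.12, adjusted p in KO = 0.36 by limma), and Tfb1m, a mitochondrial rRNA methyltransferase, at -0.35 in HET and -0.12 in KO (SE 0.14).

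Markers of other cells were set beside the members. In KO all 5 ependymal markers lay below WT (median -0.42), with a summed log2 level of 27.0 to 28.7 in KO, 29.5 to 30.8 in HET and 30.2 to 30.3 in WT. Of 5 astrocyte markers 3 lay below WT in KO and 2 above (median -0.31), with sums of 29.9 to 31.0 in KO, 31.5 to 33.4 in HET and 32.1 to 33.0 in WT. Aqp4 fell by a log2 change of -1.02 (adjusted p = 0.033 by limma), while Aldh1l1 lay at 0.21 (adjusted p = 0.90), so the markers did not move together. The members' KO median beside these was 0.017. The sums of the 8 radial glia markers were 68.6 to 69.5 in WT, 67.6 to 69.1 in HET and 68.5 to 69.8 in KO. For muscle, whose forms of complex IV are among the members, the medians of 8 markers were -0.026 in HET and -0.054 in KO, and for brown fat those of 4 markers were -0.054 and 0.042. In HET the medians were 0.094 for oligodendrocytes, -0.012 for choroid plexus, -0.018 for microglia, -0.064 for endothelial cells and pericytes, -0.23 for red blood cells and -0.070 for meninges. For red blood cells only 2 of the 6 listed markers were measured.

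Probe sets of the same gene were compared. Of the 89 members, 17 had more than 1 probe set with a single symbol, and these gave the same sign in HET against WT for 14 genes and in KO against WT for 13. In HET the exceptions were Atp5h, Cox5b and Ndufb11, with Atp5h ranging from -0.0080 to 0.14. In KO they were Atp5h, Atp5pb, Cox7b and Ndufa11, with Ndufa11 at -0.060 in the probe set used and 0.27 in the other. Sizes could also differ where signs matched. The probe set not used gave 0.24 in HET and 0.12 in KO for Cox7a2l. For Cox6c it gave 0.084 and 0.094, and for Uqcr11 0.013 and 0.094. A further 6 probe sets carried a subunit's symbol together with another gene, so their signal cannot be assigned. Those for Cox7c gave 0.23 to 0.24 in HET and those for Ndufb4 0.23 to 0.26. Values were equal on 2 or more arrays, within 1e-06, for 43 members, against 62.9% of all genes, and Cox7a2l had the same value on 5 of the 9 arrays.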

How the data were processed

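Gene expression was measured on 9 arrays, 3 for each genotype, and the deposited values are log2 expression of the authors, 1 per probe set and array. Per the submitters' processing notes, the tools included affy, limma and RMA, without versions. Of 28940 probe sets, 21789 carried 1 gene symbol in the platform annotation, 1621 carried several and 5530 were not listed there. The probe set with the highest mean represented each of 19938 genes. All genes were fitted in limma 3.58.1 (R 4.3.3) with lmFit and eBayes, with a mean per genotype and Benjamini-Hochberg adjustment. The script was tested on simulated data, with changes larger than that of any member and no shifts shared by the genes of an array. That test does not show whether changes as small as those of the members would be found.

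The members, the lists and the tests were chosen with earlier results of these data known. Members were named by rank, the 10 of lowest unadjusted p in each pairwise comparison, and by role, as core subunits and paralogue sets. Genes of other lists could be named if among the 3 of lowest unadjusted p for HET or for KO, each against WT. Promoter windows are from RefSeq. Alternatives covered normalization, centring, array weights, the variance model, dim genes, probe sets, the arrays fitted, the replicate number and leaving out arrays. The number of arrays limits the precision.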

Additional observations from a re-analysis of the deposited data

How the results depend on the processing

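No member was called under any of the 21 settings tried in each comparison. The smallest adjusted p of a member by limma over these settings was 0.22 in KO against WT, 0.11 in HET against WT, 0.074 in KO against HET and 0.080 for HET against the mean of WT and KO. Leaving out each array in turn, the median member lay between 0.064 and 0.18 in HET against WT, between -0.022 and 0.047 in KO against WT, between -0.16 and -0.031 in KO against HET and between 0.032 and 0.17 for HET against the mean of the others. Under the other settings the ranges were 0.073 to 0.18, -0.00028 to 0.047, -0.12 to -0.065 and 0.062 to 0.15. Over all genes, the 90 calls in KO against WT became 151 with array weights, 33 with only those groups fitted and 23 without WT replicate 1; the cause was not tested. Of 2451 values of named members under these settings, 125 had the opposite sign to their reported value and 0 were called. Many of these values could not change, as under the replicate block, the variance model or with an array of the genotype not compared left out. This count therefore does not measure how far signs rested on single arrays. With the replicate block, 0 members were called in each comparison, and calls over all genes were 72 in KO against WT, 0 in HET against WT and 19 in KO against HET, where they had been 41. Arrays of the same number had deviations correlated from -0.34 to 0.055 over all genes, so the numbers were not taken as pairs.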
